A study of Mus musculus with 2 samples.

Results

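Macrophage and monocyte genes were examined in wounded mouse skin through 10 genes of the array's 17872. The genes were chosen by name: C1qa, C1qb, C1qc, Mrc1 and Ms4a7 as markers associated with resident or long-lived macrophages, Csf1r, Cd68 and Lyz2 as markers of mononuclear phagocytes in general, and Arg1 and Chil3 as markers associated with macrophages recruited to wounds or alternatively activated. All 10 were on the array, with 16 probes. C1qc, Lyz2 and Chil3 carry the older symbols C1qg, Lyzs and Chi3l3 in the file and were matched through RefSeq names. Each of the 10 genes was detected on both arrays by its brightest probe, and 14 of the 16 probes were detected.

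The samples were wounded back skin of C57BL6 mice on a low calcium diet, aged 3 months and taken 3 days after the wounds were made. The knockout mice carried VDR fl/fl with Cre driven by K14, which removes the vitamin D receptor from keratin 14-expressing keratinocytes and leaves it in cells without that promoter's activity, so macrophages keep the gene by design. The controls were VDR fl/fl littermates. Full-thickness wounds, 2 per mouse, were made with a 6 mm punch, and an 8 mm punch took out the wound with the skin around it, so each sample mixed all cell types of wound and skin. The data are 1 bead array of knockout and 1 of control skin, and the design text gives RNA of 3 mice per sample. With 1 array per genotype there is no replicate check, no test and no p-value, and the number of arrays limits the precision. The 2 arrays lie on 1 slide at different positions, so array position and genotype cannot be told apart. In bulk skin, fewer cells of a type and less RNA per cell cannot be told apart either.

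Macrophages enter a skin wound as circulating monocytes within days and join macrophages that already live in the dermis. Both carry the growth factor receptor encoded by Csf1r. They clear dead cells and debris, and their lysosomal, complement and scavenger receptor genes are the usual marks by which they are recognised in tissue RNA. In mice, Arg1 and Chil3 are known as genes of macrophages exposed to interleukin-4 or of the early repair phase, although Arg1 is also expressed by keratinocytes and Chil3 and Lyz2 also by neutrophils.

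Promoters are shown for C1qb and C1qc, neighbouring genes of the C1q cluster, and for Ms4a7 and Chil3, the genes with the highest and the lowest difference of the set. RefSeq promoter windows of GRCm38.p6 were found for 7 of the 10 genes, and the 250 bases before the annotated start are given here 5′ to 3′ for C1qb at chr4:136886201-136886450 (minus strand), its neighbour C1qc at chr4:136892915-136893164 (minus strand), Ms4a7 at chr19:11336147-11336396 (minus strand) and Chil3 at chr3:106167565-106167814 (minus strand). Capitals mark matches to GAGGAA, the core bound by the myeloid factor PU.1, in C1qb and C1qc, to a STAT6-type element (TTC and GAA with any 4 bases between) in Ms4a7, and to a STAT gamma element (TTCNNNGAA) in Chil3, all searched on both strands.
C1qb: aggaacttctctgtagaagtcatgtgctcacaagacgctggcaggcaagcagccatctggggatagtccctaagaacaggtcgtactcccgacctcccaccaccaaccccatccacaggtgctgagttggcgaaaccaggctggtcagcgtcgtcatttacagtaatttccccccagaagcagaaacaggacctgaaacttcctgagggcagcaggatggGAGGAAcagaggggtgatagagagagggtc
C1qc: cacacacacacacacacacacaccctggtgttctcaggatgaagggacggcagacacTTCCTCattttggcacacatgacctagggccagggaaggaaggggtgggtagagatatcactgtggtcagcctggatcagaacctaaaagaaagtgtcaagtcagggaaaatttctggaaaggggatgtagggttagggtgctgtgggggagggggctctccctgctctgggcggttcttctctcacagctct
Ms4a7: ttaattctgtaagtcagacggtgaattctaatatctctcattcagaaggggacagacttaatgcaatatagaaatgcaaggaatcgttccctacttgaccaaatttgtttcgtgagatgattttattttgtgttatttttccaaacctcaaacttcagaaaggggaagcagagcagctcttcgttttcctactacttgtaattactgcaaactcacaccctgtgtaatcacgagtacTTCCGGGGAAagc
Chil3: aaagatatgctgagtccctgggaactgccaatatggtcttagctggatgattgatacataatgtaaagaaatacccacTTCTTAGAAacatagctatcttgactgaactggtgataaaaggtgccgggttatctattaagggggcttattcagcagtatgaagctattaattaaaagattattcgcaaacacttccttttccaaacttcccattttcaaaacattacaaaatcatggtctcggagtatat

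GAGGAA was present in 4 of the 7 windows (C1qb, C1qc, Mrc1 and Cd68), against 23.3% of all 32851 promoter windows of that length. It lay 30 to 25 bases before the start of C1qb and 193 to 188 bases before that of C1qc. TTNNGNAA, a loose form of the C/EBP element, was in 6 of 7 windows, all but that of C1qb, against 36.8% of all windows. Its matches overlapped no match of another element, and in Mrc1 they overlapped each other. The STAT6-type element was found in Ms4a7, 13 to 4 bases before its start, and in 5.85% of all windows, and the STAT gamma element in Chil3 and in 7.02% of all windows. AP-1 (TGANTCA) matched in Cd68 and in 6.75% of all windows. The interferon response element (GAAA and GAAA with any 2 bases between), the ETS-IRF composite (GGAA and GAAA with any 2 bases between) and the E-box (CACGTG) matched in none of the 7 windows, against 2.98%, 2.30% and 6.02% of all windows. These are matches of letters and not measured sites.

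Nearly all of the macrophage genes had somewhat higher intensity in knockout than in control wounded skin, by less than 2-fold, and Chil3 alone was lower. On the log2 scale of the authors' normalized intensity, knockout minus control, the difference was above 0 for 9 of the 10 genes, where 53.9% of all 8930 genes detected on both arrays lay above 0 and 46.0% below. The median of the 10 was 0.29, against 0.02 for all detected genes, and the range ran from -0.68 for Chil3 to 0.77 for Ms4a7. At least 1.5-fold higher were 1 of the 10 genes, against 3.56% of all genes, and at least 1.5-fold lower were 1 of the 10, against 2.51%. With background correction by neqc, a method that models the array's background, 3 of the 10 were at least 1.5-fold higher (Ms4a7, C1qa and Csf1r), against 7.42% of all genes. The 10 genes were chosen with earlier results of these arrays known, so these counts describe the set only.

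**Figure D1:**
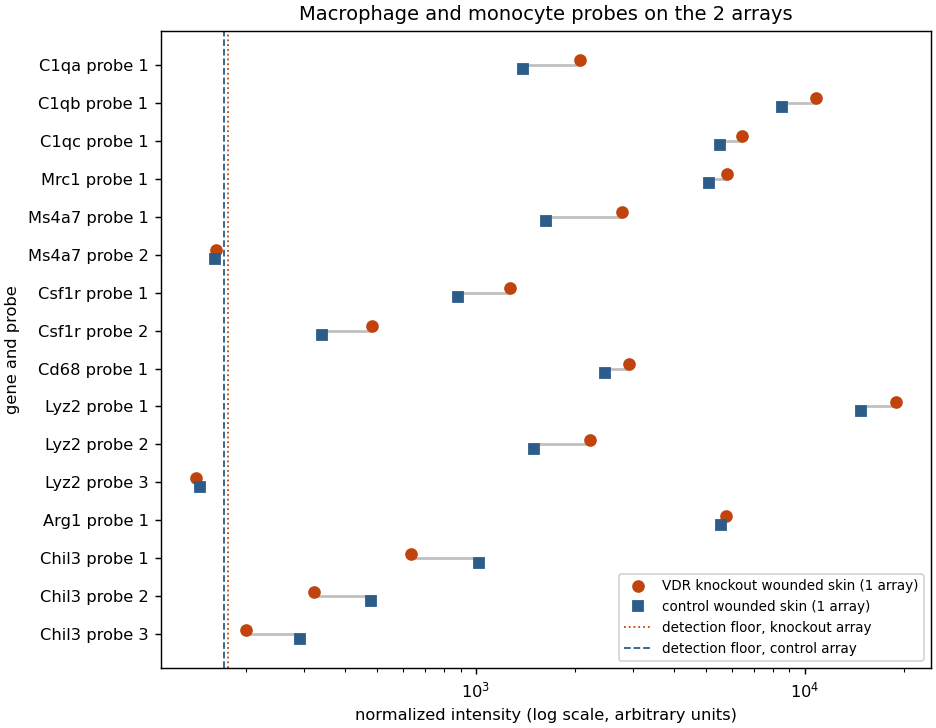
Normalized intensity (log axis, arbitrary units) of each of the 16 probes on the knockout array (circles) and the control array (squares), 1 array each, with no error bars since there are no replicates. Vertical lines mark each array's detection floor, 176.8 on the knockout array and 172.3 on the control array. The knockout point lies to the right for 11 of the 14 detected probes and to the left for the 3 probes of Chil3, while Ms4a7 probe 2 and Lyz2 probe 3 lie below both floors.

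Probes of one gene give the only repeat of a difference that these arrays hold. Across the 2131 genes with several detected probes, the differences of a gene's probes had an SD of 0.14 on the log2 scale, which says how far probes differ but nothing of how far mice differ. Differences beyond 2 such SDs, 0.29, were seen for 6 of the 10 genes and for 22.3% of all detected genes. The 6 were Ms4a7, C1qa, Csf1r, Lyz2 and C1qb on the higher side and Chil3 on the lower side. The differences of Cd68, C1qc, Mrc1 and Arg1 were no larger than that.

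Among the resident-associated genes, all 5 were higher on the knockout array, with a median difference of 0.34. C1qa, C1qb and C1qc encode the 3 chains of C1q, which recognises antibody and dying cells and starts the classical complement pathway, and which macrophages produce. C1qa had an intensity of 2083 in knockout skin, against 1396 in control skin, 1.49-fold higher. C1qb was at 10873 in knockout skin and 8572 in control skin, 1.27-fold higher. C1qc was at 6436 in knockout skin and 5533 in control skin, 1.16-fold higher. The 3 chains thus shared a direction but not a size, with log2 differences of 0.58, 0.34 and 0.22, and C1qa fell just short of 1.5-fold.

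Ms4a7, a membrane protein of monocytes and macrophages that spans the membrane several times, had the largest difference of the set. Its brighter probe was at 2782 in knockout skin and 1634 in control skin, 1.70-fold higher, and 1.65% of all detected genes had a higher difference. Its other probe was not well above background on either array, at 161.9 in knockout skin and 161.0 in control skin, so the value of Ms4a7 rests on 1 probe. Averaging both probes gave a log2 difference of 0.39 in place of 0.77. Mrc1, the mannose receptor CD206 that takes up glycoproteins and is also found on lymphatic endothelium, was at 5818 in knockout skin and 5109 in control skin, 1.14-fold higher, a difference that 21.5% of all detected genes exceeded.

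The 3 general phagocyte genes were also all higher, with a median of 0.35. Csf1r, the receptor for the growth factors Csf1 and Il34, was at 1269 in knockout skin and 887 in control skin, 1.43-fold higher. Its dimmer probe was at 483 in knockout skin and 342 in control skin, so the log2 differences of the Csf1r probes, 0.52 and 0.50, lay close together. Cd68, a heavily glycosylated protein of the lysosome membrane, was at 2930 in knockout skin and 2478 in control skin, 1.18-fold higher.

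Lyz2, the lysozyme of phagocytes, was at 18923 in knockout skin and 14833 in control skin by its brightest probe, 1.28-fold higher. Its next probe was at 2225 in knockout skin and 1504 in control skin, 1.48-fold higher, and the remaining probe, at 141.3 in knockout skin and 145.1 in control skin, was not well above background on either array. The brightest Lyz2 probe lies near the top of the array's range, where 99.68% of knockout probes and 99.48% of control probes are dimmer. Lyz1, a near-identical neighbouring lysozyme gene whose transcripts these probes may share, was at 29426 in knockout skin and 25788 in control skin, so the Lyz2 values are uncertain to that extent.

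The wound-recruited genes did not move as a pair. Arg1, the enzyme that turns arginine into ornithine and urea, was at 5760 in knockout skin and 5575 in control skin, a log2 difference of 0.05 that turned to -0.01 when raw values were aligned by their medians. Chil3, a secreted chitinase-like protein also called Ym1, was at 636 in knockout skin and 1022 in control skin, 1.61-fold lower in the knockout. Its other probes were at 324 and 199.8 in knockout skin, against 482 and 293 in control skin, 1.49-fold and 1.47-fold lower. All 3 Chil3 probes thus had the same direction, and 1.84% of all detected genes had a lower difference than its brightest probe. Chil4, the close paralog of Chil3, was not well above background on either array, at 142.1 in knockout skin and 134.8 in control skin.

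Set against each other, the resident-associated median was 0.66 higher on the log2 scale than the median of Arg1 and Chil3. Both genes lay below that median, Arg1 by 0.30 and Chil3 by 1.03, and both lay below all 5 resident-associated genes, Arg1 by 0.14 below the lowest of them, Mrc1. With 2 genes in the wound-recruited class, the gap describes these genes and not a class. The further lists described below ran the other way. The other resident-associated genes had a median of 0.08 and the other wound-recruited genes 0.28, and with neqc 0.23 and 0.35.

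**Figure D2:**
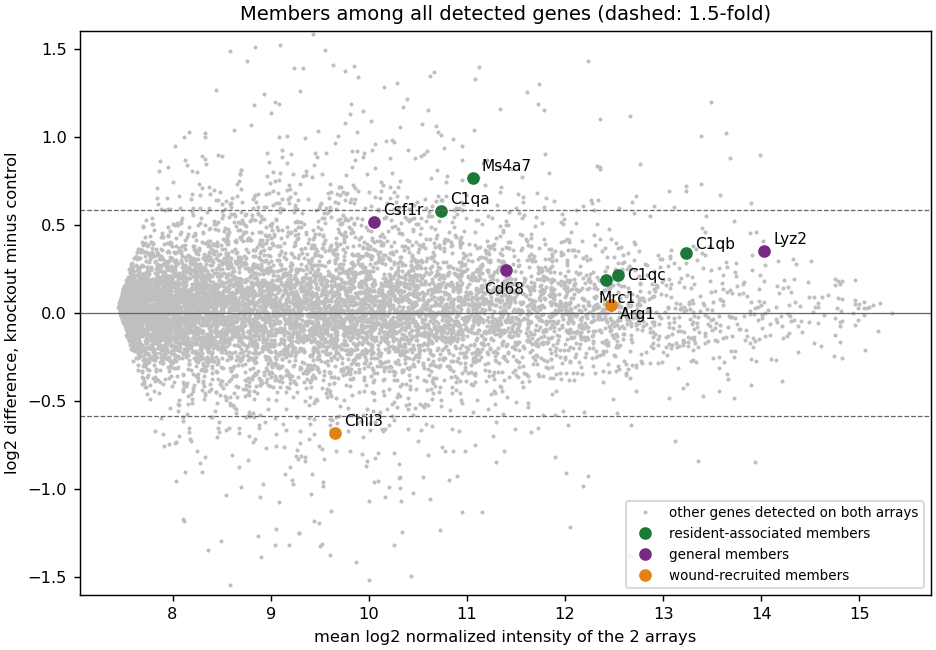
Log2 difference (knockout minus control, vertical axis) against mean log2 normalized intensity (horizontal axis) of the genes detected on both arrays, 1 array per genotype. The vertical axis ends at 1.6 in both directions, which leaves out 49 genes. Ms4a7 lies above the upper dashed line of 1.5-fold and Chil3 below the lower one, and the other 8 genes lie between the lines, all above 0.

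Other genes of mononuclear phagocytes ran in the same direction as the general ones. Of 16 detected on both arrays out of 19 on the array, 14 were higher, with 4 of them past 1.5-fold, and 2 were lower, neither past 1.5-fold. Over all detected genes 53.9% were higher and 3.56% past 1.5-fold higher. The list had a median of 0.37. Trem2, a lipid-sensing receptor of macrophages, was at 928 in knockout skin and 518 in control skin, 1.79-fold higher. Tyrobp, the adaptor through which Trem2 signals, was at 2573 in knockout skin and 1619 in control skin, 1.59-fold higher. Aif1, the cytoskeletal protein Iba1, was at 1344 in knockout skin and 895 in control skin, and its other detected probe at 937 in knockout skin and 595 in control skin. Fcgr3, a receptor for antibody, was 1.51-fold higher in the knockout. Laptm5, a lysosomal protein of leukocytes, was at 17223 in knockout skin and 13710 in control skin, 1.26-fold higher. Cybb and Ptprc were not well above background on either array.

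A further list of genes associated with resident dermal macrophages had a lower median than the 5 resident-associated genes above, 0.08 against 0.34. With neqc the medians were 0.23 and 0.33. Of 13 detected on both arrays, 9 were higher and 4 lower, none by 1.5-fold, where 53.9% of all detected genes were higher. Stab1, a scavenger receptor, was at 1193 in knockout skin and 850 in control skin, 1.40-fold higher. Lyve1, a hyaluronan receptor shared with lymphatic endothelium, was 1.38-fold higher. Gas6, which bridges dying cells to phagocyte receptors, was at 7473 in knockout skin and 7422 in control skin. The haemoglobin scavenger receptor Cd163, named here after its value was seen, was at 1146 in knockout skin and 1380 in control skin, 1.21-fold lower in the knockout. The folate receptor Folr2, also named after its value was seen, was at 1476 in knockout skin and 1479 in control skin. Genes with the resident-associated label thus ranged from 1.21-fold lower (Cd163) to 1.70-fold higher (Ms4a7).

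Of 12 detected genes associated with inflammatory monocytes and early wound macrophages, 8 were higher and 4 lower, with a median of 0.28, and 2 were at least 1.5-fold higher, beside the same shares of 53.9% and 3.56% over all genes. Mmp12, the macrophage elastase, was at 392 in knockout skin and 196 in control skin, 2.0-fold higher, with the control value close to the floor, and its log2 difference was 1.96 with neqc. Spp1, the secreted protein osteopontin, was at 3278 in knockout skin and 2038 in control skin, 1.61-fold higher. Gpnmb, a membrane glycoprotein of lipid-laden macrophages, was at 12043 in knockout skin and 12189 in control skin. None of the 12 was as far on the lower side as Chil3: the lowest difference, that of the cytokine gene Tnf, was -0.18, at 527 in knockout skin and 596 in control skin. Ccr2, the chemokine receptor of inflammatory monocytes, was not well above background on either array.

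Genes around Arg1 went both ways. Of 10 detected genes of alternative activation and arginine use, 6 were higher and 4 lower, with a median of 0.13. That is near the 53.9% higher over all detected genes. Ass1, which makes the precursor from which cells rebuild arginine, was at 1411 in knockout skin and 2433 in control skin, 1.72-fold lower in the knockout. Ear2, a ribonuclease of eosinophils and some macrophages with near-identical paralogs, was at 1039 in knockout skin and 555 in control skin, 1.87-fold higher. Tgm2, a protein-crosslinking transglutaminase, was at 6426 in knockout skin and 5479 in control skin. Retnla, a dim gene of this list named after its value was seen, was at 223 in knockout skin and 276 in control skin. Its log2 difference was -0.31, and -0.64 with neqc, the same direction as Chil3.

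Of the ligands that feed or attract these cells, 7 of 8 detected were higher, with a median of 0.27. Over all detected genes 53.9% were higher and 3.56% at least 1.5-fold higher. Of the Csf1r ligands, Il34, which is made by keratinocytes, was at 478 in knockout skin and 311 in control skin, 1.54-fold higher, and Csf1, named after its value was seen, was at 365 in knockout skin and 372 in control skin. Ccl7, a chemokine for monocytes, was at 776 in knockout skin and 497 in control skin, 1.56-fold higher, and Ccl4, another chemokine, was at 15611 in knockout skin and 14962 in control skin.

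Genes listed as partners of C1q in the classical complement start were higher in 5 of 6 detected, with a median of 0.38. Over all detected genes 53.9% were higher. The lower gene was C1qbp, at 1424 in knockout skin and 1836 in control skin, a log2 difference of -0.37. C1ra, C5ar1 and C3ar1 were not well above background on either array. C4b, which C1 cleaves, was at 4719 in knockout skin and 3042 in control skin, 1.55-fold higher. C3, a later component of the cascade, was at 6448 in knockout skin and 4132 in control skin, 1.56-fold higher. C2, named after its value was seen, was at 3005 in knockout skin and 2516 in control skin, a log2 difference of 0.26. Serping1, the inhibitor of C1, was at 11559 in knockout skin and 8866 in control skin, 1.30-fold higher. The differences of C4b, C3 and Serping1 were no smaller than that of C1qb, and that of C2 was smaller. Fibroblasts and other cells make these components as well.

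Lysosomal genes, the group to which Cd68 belongs by location, had a median of 0.17. Of 14, 11 were higher and none past 1.5-fold, against 53.9% and 3.56% of all detected genes. Ctsz and Hexa, both hydrolases, were 1.37-fold and 1.28-fold higher, and Ctsb, a cathepsin, was at 15418 in knockout skin and 13646 in control skin. Of 10 other Ms4a genes on the array, 2 were detected: Ms4a6d was at 6575 in knockout skin and 5394 in control skin, with a dimmer probe at 1559 in knockout skin and 1019 in control skin, and Ms4a8a was at 322 in knockout skin and 279 in control skin. The dimmer Ms4a6d probe differed by 0.61 on the log2 scale and the brighter by 0.29.

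**Figure D3:**
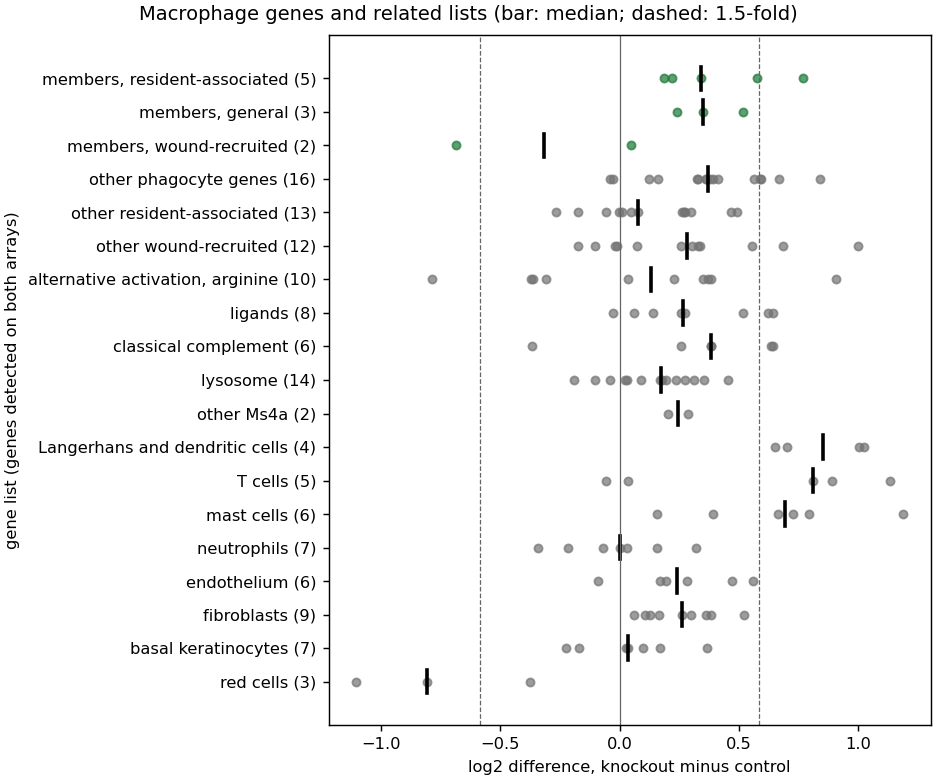
Log2 difference (knockout minus control) of each gene detected on both arrays, 1 array per genotype, by gene list, with the number of genes in brackets, the list median as a bar and dashed lines at 1.5-fold. The resident-associated and general macrophage genes lie above 0, Arg1 and Chil3 lie apart, and Langerhans and dendritic cell, T cell and mast cell markers have higher medians (0.85, 0.81 and 0.69) than any macrophage list.

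Markers of other cells moved on the same arrays, and their part in the macrophage differences was not tested. Over all detected genes, 53.9% were higher and 46.0% lower in knockout skin. Langerhans and dendritic cell markers were higher in 4 of 4 genes detected on both arrays, with a median of 0.85. Their summed intensity was 34217 in knockout skin and 17049 in control skin, of which Cd74 and H2-Ab1 made up most. Cd74, H2-Ab1 and H2-Eb1 take part in MHC class II antigen presentation and are also expressed by macrophages. Cd207, the Langerhans cell lectin, was at 531 in knockout skin and 326 in control skin. The dendritic cell markers Itgax, Flt3, Zbtb46, Ccr7 and Clec9a were not well above background on either array. Xcr1 passed the floor on the control array only, at 152.6 in knockout skin and 176.0 in control skin. H2-Aa passed it on the knockout array only, at 177.8 in knockout skin and 156.7 in control skin. Mast cell markers were higher in 6 of 6 with a median of 0.69 and sums of 7950 in knockout skin and 5058 in control skin. T cell markers were higher in 4 of 5 with a median of 0.81 and sums of 8138 in knockout skin and 7149 in control skin. Thy1 made up most of the T cell sums, at 6137 in knockout skin and 5987 in control skin. Cd3d, Cd3e and Cd3g were 1.76-fold, 1.85-fold and 2.20-fold higher, and Lck was 1.04-fold lower. Cd247, Cd8a and Cd4 were not well above background on either array. Neutrophil markers, which matter for Lyz2 and Chil3, were higher in 4 of 7 with a median of 0.00 and sums of 44058 in knockout skin and 44701 in control skin, with the neutrophil gene Retnlg 1.27-fold lower and the receptor gene Csf3r 1.25-fold higher in the knockout. Fibroblast and endothelial markers had medians of 0.26 and 0.24, close to the median of the 10 macrophage genes, with sums of 49073 and 13483 in knockout skin and of 42862 and 11608 in control skin. Basal keratinocyte markers, which matter for Arg1, were detected in 7 of 7 with a median of 0.04. Their sums were 71734 in knockout skin and 69950 in control skin. Growing hair follicle markers were lower in 9 of 9, with sums of 3089 in knockout skin and 161102 in control skin, and red cell markers lower in 3 of 3, with sums of 11013 in knockout skin and 23295 in control skin.

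Over the whole arrays, the median raw signal was 165.8 on the knockout and 180.0 on the control array, and 47.3% of probes were detected on the knockout and 49.0% on the control array. Vdr itself was at 2076 in knockout skin and 2596 in control skin by its brightest probe, 1.25-fold lower in the knockout, and no file or label used here says if the floxed exons hold that probe.

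**Figure D4:**
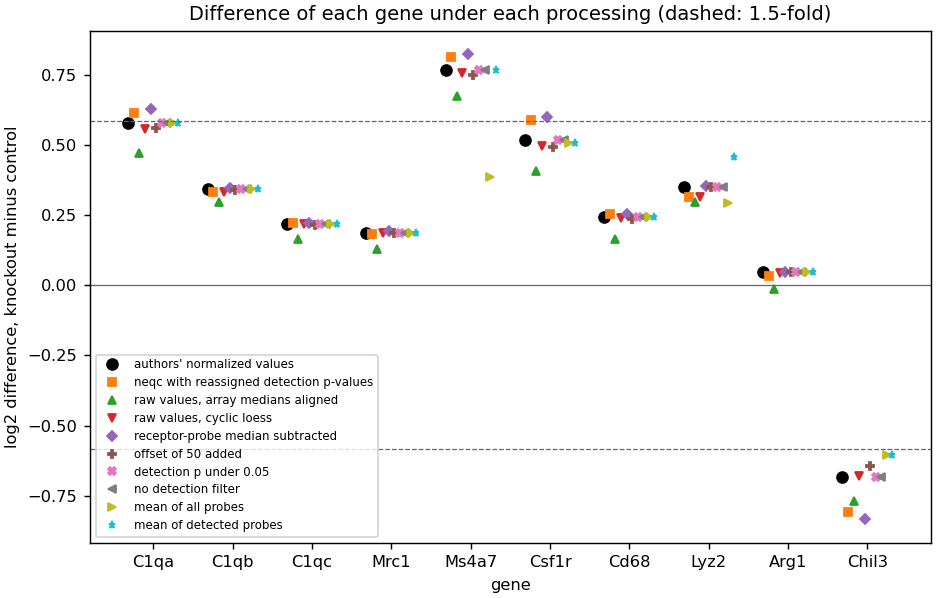
Log2 difference (knockout minus control) of the 10 macrophage genes under the authors' normalized values and 9 other ways of processing, 1 array per genotype, with dashed lines at 1.5-fold. Chil3 stays below 0 and 8 genes stay above 0 in all of them, while Arg1 crosses 0 with raw values aligned by their medians. The value of Ms4a7 drops to 0.39 when its undetected probe is averaged in.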

How the data were processed

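RNA from wounded skin was labelled with biotin and read on Illumina bead arrays in 1 colour, per the labels' protocols. The submitters' processing notes name GenomeStudio 2011.1. How background was treated and how arrays were normalized is not stated in those notes, the labels or the headers. The deposited tables hold linear intensity for 25697 probes, raw and normalized, and a detection p-value per probe, per the file headers. In the normalized table both arrays share their quantiles (1 rank differs by over 1%), and the series matrix equals it (0 probes differ).

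The detection p-values do not follow the row order of the signals (rank correlation 0.008 for the knockout and 0.009 for the control array). As a set, they set how many of the brightest probes counted as detected: 12161 on the knockout and 12588 on the control array, the numbers of p-values under 0.01.

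Differences are log2 of the authors' normalized intensity, knockout minus control, with no offset, so background remains and folds of dim genes are understated. A gene was taken by its brightest probe. Probe names were updated with RefSeq's GRCm38.p6 gene table, which left 322 with the deposited symbol. The headers name no genome build, so the only coordinates given are those of RefSeq's own promoter windows. Named are all probes of the 10 genes and, from each other list, genes at least 1.5-fold apart (otherwise the 2 with the largest difference) and the brightest gene; lists of other cell types are summarised instead. The members, lists and rules were chosen with earlier results of these data known. The design text gives n=3 per genotype with RNA of 3 mice per sample, and 1 array per genotype was analysed here. Alternatives used limma 3.58.1 (neqc, given p-values sorted to match the signals, and cyclic loess). The difference and neqc were tested on simulated data.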

Additional observations from a re-analysis of the deposited data

How the results depend on the processing

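The values of the 10 macrophage genes, their median, their resident minus recruited gap and the 1.5-fold count were recomputed under 9 alternatives. Of these, 8 were planned and 1, the mean of a gene's detected probes, was chosen after seeing the data. The differences of 8 genes stayed above 0 and that of Chil3 below 0 under all 9, and no difference moved by 1.5-fold or more. Chil3 ran from -0.84 to -0.60, Ms4a7 from 0.39 to 0.82, C1qa from 0.47 to 0.63, Csf1r from 0.41 to 0.60, Lyz2 from 0.29 to 0.46, and Arg1 from -0.01 to 0.05. The median of the 10 genes ran from 0.23 to 0.30, and the resident minus recruited gap from 0.62 to 0.74. The number of genes at least 1.5-fold higher was 1 in the main setting. It was 3 with neqc, where 7.42% of all genes were, and 3 with the receptor-probe median subtracted, where 9.17% were, since Csf1r and C1qa then also passed. It was 0 with the mean of all probes, where 2.88% were, since that averages in the undetected Ms4a7 probe. The other gene lists were recomputed with neqc only. There the genes at least 1.5-fold higher numbered 4 in place of 2 for the other wound-recruited list, 2 in place of 1 for alternative activation (and 2 in place of 1 lower), and 1 in place of 0 for the other resident-associated, lysosomal and endothelial lists, and 1 neutrophil marker in place of 0 was as much lower. The other lists changed by no more than 1 gene at that threshold. For comparison, 422 of all 8930 detected genes reached it on the lower side with neqc, against 224 with the authors' values. On the higher side 663 did so with neqc, against 318. No paired analysis was possible because each genotype has 1 array, and no array could be left out. For dim genes such as Mmp12, background limits the fold: its log2 difference was 1.96 with neqc, above that of the authors' values.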

Other observations

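Receptors for dying cells did not share one difference. Mertk, which engulfs dying cells through Gas6, was at 474 in knockout skin and 378 in control skin, while Axl, a receptor of the same family that many stromal cells also carry, was at 5855 in knockout skin and 6028 in control skin. These genes were picked after their values were seen and are given as values only.

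Further arginine genes beside Arg1 were picked after their values were seen and are given as values only. Slc7a2 was at 181.8 in knockout skin and 177.3 in control skin, close to the floor. Arg2, the mitochondrial arginase, was at 489 in knockout skin and 629 in control skin, and Odc1, which turns ornithine into polyamine precursors, at 3492 in knockout skin and 4520 in control skin, log2 differences of -0.36 and -0.37. Among mast cell markers, 2 were also picked after their values were seen. The IgE receptor chain Fcer1a was at 822 in knockout skin and 361 in control skin. The protease Mcpt4 was at 2990 in knockout skin and 1807 in control skin.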
